A study of Homo sapiens with 6 samples.

Results

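Khellin, a furanochromone found in Ammi visnaga, was compared with control in MDA-MB-231, a human triple-negative breast cancer line, by sequencing of polyadenylated RNA. The genes described here are 37 that encode enzymes of tRNA charging, amino acid synthesis and folate one-carbon metabolism, taken from the table by symbol from a list that was drawn up with earlier results of these data known. A row of the count table carried the symbol of 36 of them, among 27776 rows in all, and CBS, cystathionine beta-synthase, was not analysed here. They are 19 cytosolic aminoacyl-tRNA synthetase genes, 11 amino acid synthesis genes and 6 one-carbon genes.

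Both groups are MDA-MB-231 cells with 3 libraries each, and the labels give no dose, vehicle or exposure time. The first group is control in the sample titles, but the series' design text names a docetaxel-resistant group, so whether the control cells, or both groups, were resistant is not settled by the labels. Libraries are termed biological replicates without any statement that their cultures were separate, and the p-values then measure only the spread between these samples. In bulk RNA from a culture, fewer cells of a type and less RNA per cell cannot be told apart.

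Total counts ranged from 28631578 to 30956610 per library, and 3 counts corresponded to 0.0969 to 0.105 CPM (TMM-scaled read counts relative to library size). Of the markers of the line, VIM and AXL were high in every library, whereas CDH1 had 0 counts in all 3 control libraries and ESR1 reached at most 0.42 CPM. CDH1 had 1 to 2 counts in the khellin libraries, and PGR reached at most 0.55 CPM. Other luminal and receptor genes were expressed. KRT8 went from 141 ± 6.31 to 176 ± 3.05 CPM and ERBB2 from 103 ± 2.06 to 118 ± 4.65 CPM (SD, n = 3), both called higher. In control KRT18 was at 79.4, KRT19 at 47.3, and EPCAM, FOXA1 and GATA3 at 4.53 to 6.04 CPM. Of the 6 line markers, CD44 fell from 591 ± 11.9 to 483 ± 10.1 CPM (SD, n = 3) while CAV1 and MKI67 rose, and their summed level was 3922 to 4057 CPM in control and 4204 to 4334 CPM with khellin, and that of 10 luminal and receptor genes was 371 to 402 CPM in control and 443 to 456 CPM with khellin. The 9 measured markers of fibroblasts, endothelium and blood summed to 9.46 to 10.5 CPM in control and 16.0 to 17.4 CPM with khellin, with 3 of them at no more than 3 counts in every library. Of these 9, all 3 that could be tested, COL1A1, PECAM1 and CD14, rose, and COL1A1 had the highest level of the list in every library. COL1A2, COL3A1 and CDH5 stayed at or near 0. LUM had 4 to 7 counts in control and 2 to 4 with khellin, VWF 4 to 8 and 2 to 5, and PTPRC 0 to 3 and 1 to 6. In CPM every khellin library was below every control library for LUM, while VWF and PTPRC overlapped. The proliferation marker MKI67 went from 391 to 451 CPM in control to 598 to 616 CPM with khellin. The part of these shifts in the results below was not tested.

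Aminoacyl-tRNA synthetases attach each amino acid to its tRNA and so supply the ribosome. Serine is made from a glycolytic intermediate by PHGDH, PSAT1 and PSPH, and serine hydroxymethyltransferases pass its side-chain carbon to folate, where the MTHFD enzymes interconvert the carbon units used for purines, thymidylate and formate. When charged tRNAs run short or the endoplasmic reticulum is stressed, eIF2alpha kinases slow general translation and favour translation of the transcription factor ATF4, and many synthetase, serine, asparagine and one-carbon genes are known ATF4 targets. ATF4 and its C/EBP partners bind amino acid response elements, of which that of the ASNS promoter is the textbook example.

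The letters TGATGNAA, a core of this element, were searched on both strands in the 250 bases before each RefSeq gene start (GRCh38.p14), a window that does not show binding. A match was present in 1104 of 35116 promoters (3.14%) and in 7 of the 41 promoters found for 29 of the listed genes (17.1%). By gene this was 6 of 29 (20.7%), against 1061 of 27305 genes (3.89%), and the 6 were AARS1, ASNS, GARS1, GOT1, IARS1 and MTHFD1L. The table had no entry for LARS1, VARS1, YARS1, PSPH, PYCR1, GPT2, SHMT2 and ALDH1L2. Below are the promoter of ASNS and those of the 3 called genes with a match, 5′ to 3′ on the strand of the gene and ending at the base before its start, with the matched letters in capitals.
ASNS, chr7:97872409-97872658, minus strand: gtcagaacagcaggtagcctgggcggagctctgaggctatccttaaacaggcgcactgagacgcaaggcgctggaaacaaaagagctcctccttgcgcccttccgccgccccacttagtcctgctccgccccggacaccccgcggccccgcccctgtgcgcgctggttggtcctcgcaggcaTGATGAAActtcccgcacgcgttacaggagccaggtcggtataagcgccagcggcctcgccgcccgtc
GOT1, chr10:99430625-99430874, minus strand: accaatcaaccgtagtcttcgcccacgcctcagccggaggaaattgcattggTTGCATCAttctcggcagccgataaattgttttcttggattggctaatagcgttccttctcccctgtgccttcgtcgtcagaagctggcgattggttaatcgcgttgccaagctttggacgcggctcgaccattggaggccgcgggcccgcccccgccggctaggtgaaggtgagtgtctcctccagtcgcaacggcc
MTHFD1L, chr6:150866197-150866446, plus strand: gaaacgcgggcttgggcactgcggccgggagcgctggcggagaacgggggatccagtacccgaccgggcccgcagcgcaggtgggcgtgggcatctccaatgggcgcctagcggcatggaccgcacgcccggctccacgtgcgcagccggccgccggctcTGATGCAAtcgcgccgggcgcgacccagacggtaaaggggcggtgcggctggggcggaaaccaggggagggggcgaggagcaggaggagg
AARS1, chr16:70289507-70289756, minus strand: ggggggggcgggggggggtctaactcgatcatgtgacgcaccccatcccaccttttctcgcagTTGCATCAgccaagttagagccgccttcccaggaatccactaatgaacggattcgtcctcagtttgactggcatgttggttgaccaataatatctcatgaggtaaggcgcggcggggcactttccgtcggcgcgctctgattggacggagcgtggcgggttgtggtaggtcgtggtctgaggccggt
The match lay 68 to 61 bases before the start shown of ASNS, which did not pass the test, and read in the direction of the gene. In GOT1 and AARS1, which rose, it read on the reverse strand, 198 to 191 and 187 to 180 bases before the start. In MTHFD1L, which fell, it read forward, 90 to 83 bases before the start shown, and a second annotated start of MTHFD1L has the same letters in an overlapping window. Further annotated starts of MTHFD1L had no match, nor had another annotated start of ASNS and of GARS1. Genes with a match thus included some that rose, some that fell and some that did not pass.

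At the level of RNA, 34 of the 36 genes had a mean of at least 10 CPM in control, with ASNS between 1 and 10 CPM and ALDH1L2 under 1 CPM. Levels between genes are given as CPM per kilobase of merged exons. The highest in control were GOT2, the mitochondrial aspartate aminotransferase, at 104 ± 3.55, and PSAT1, the serine pathway aminotransferase, at 94.2 ± 1.95 (SD, n = 3), whose difference is larger than these spreads. TARS1 at 78.4 ± 0.678, IARS1 at 69.9 ± 3.49 and FARSA at 66.5 ± 4.06 followed, of which IARS1 and FARSA did not differ beyond their spread. Among the lowest were PHGDH at 6.38 ± 0.282, CTH at 5.06 ± 0.211, SHMT1 at 4.90 ± 0.172, ASNS at 0.739 ± 0.0355 and ALDH1L2 at 0.0515 ± 0.0149 CPM per kilobase, and the SD of CTH and that of SHMT1 overlap. The ASNS row may not hold its full level, because another gene on the same strand shares 44.6% of its exon bases. These levels depend on the length used: PSAT1 stood at 14.8 times PHGDH in control by merged exons, at 5.59 times by coding length and at 3.50 times in CPM.

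**Figure D1:**
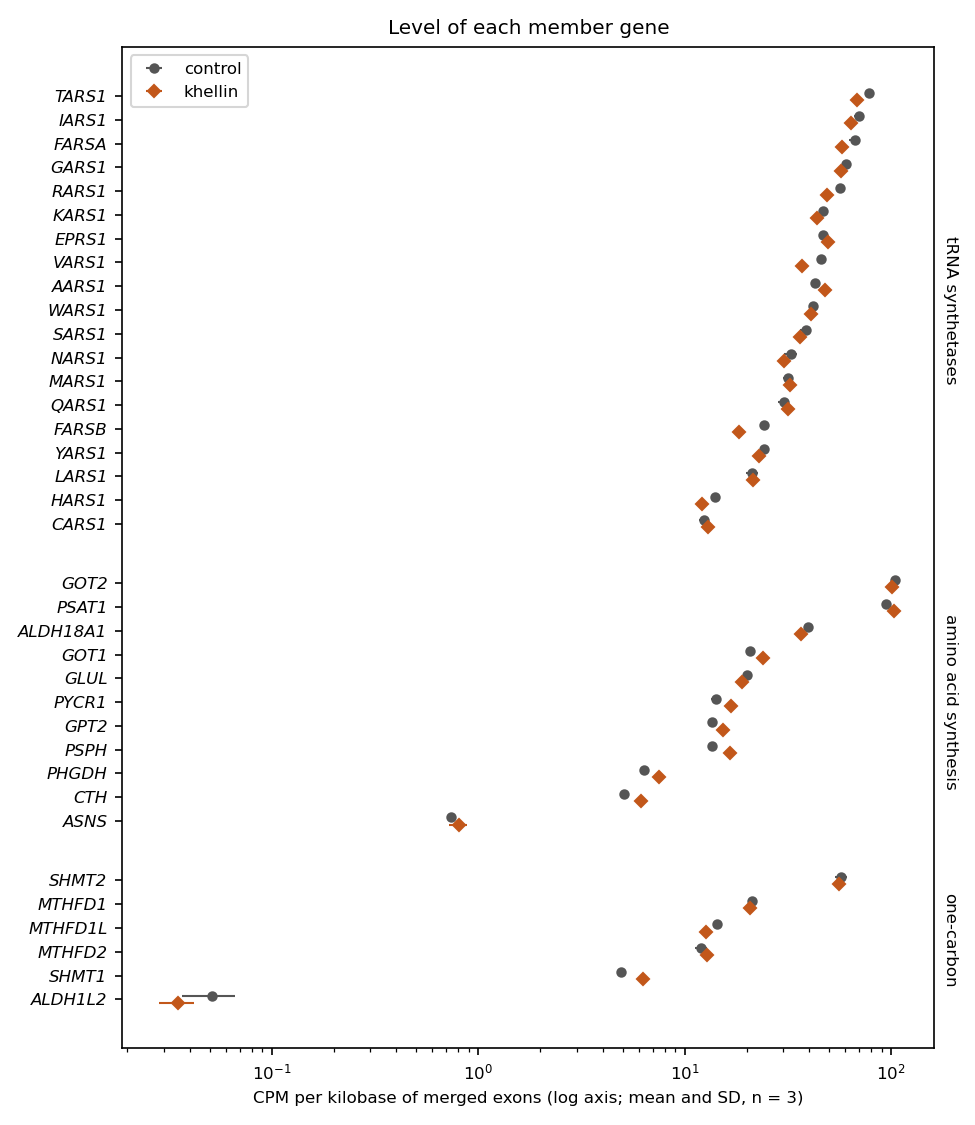
Level of each gene in CPM per kilobase of merged exons on a log axis (points are means of 3 libraries, bars SD) for control and khellin. Differences between genes span from 0.0515 (ALDH1L2) to 104 (GOT2) in control and are far larger than those between the groups.

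Khellin changed these genes by small amounts and not in 1 direction: 6 of 11 amino acid synthesis genes rose and 6 of 19 synthetase genes fell. Of the 36 genes, all tested, 8 rose, 7 fell and 21 did not pass (edgeR quasi-likelihood test, Benjamini-Hochberg adjustment over 15865 genes, threshold 0.05). Among all tested genes 1681 rose (10.6%) and 1399 fell (8.82%), which is 19.4% called in either direction, and 23% of the 9814 genes with a mean of at least 10 CPM were called. The 41.7% called here stands above both, as a description and not a test of the list. The called genes had a median absolute log2 fold change of 0.21, against 0.35 for all called genes, and the largest rise and fall were those of SHMT1 and FARSB. The control and khellin libraries did not overlap for 23 of the 36 genes, 9 with khellin above and 14 with khellin below, against 38.2% of all tested genes. All 15 called genes were among them. The median log2 fold change was -0.03 over the 36 genes and 0.00 over all genes.

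By role, 1 of 19 synthetase genes rose and 6 fell (median log2 fold change -0.08), 6 of 11 amino acid synthesis genes rose and 0 fell (0.18), and 1 of 6 one-carbon genes rose and 1 fell (-0.03). Of the amino acid synthesis genes, 1 was lower at an unadjusted edgeR p under 0.05 (ALDH18A1), and DESeq2 and limma-voom each called 0 lower, but 2 were lower with the length and GC correction (ALDH18A1 and GLUL). The 6 rises of this group came to 1 without control library 2, khellin library 2 or khellin library 3, and to 2 without khellin library 1. Summed over each group, synthetases took 4088 ± 29.1 CPM in control and 3846 ± 16.5 CPM with khellin (SD, n = 3), and amino acid synthesis genes 1235 ± 27.1 and 1276 ± 10.8 CPM. Neither sum overlapped between the groups, while the one-carbon sums, 642 ± 16.3 and 638 ± 3.13 CPM, did. The amino acid synthesis sums were barely apart, at 1265 CPM in control library 3 and 1267 CPM in khellin library 3. The nearest synthetase sums were 4056 CPM in control library 2 and 3865 CPM in khellin library 1. Scaled by library size only, 9 of the 36 genes rose and 4 fell (2208 and 986 of all genes), and corrected for length and GC content of genes 9 rose and 15 fell (2073 and 3055 of all genes). Leaving out control library 1 gave 8 higher and 7 lower genes, and leaving out control library 3 gave 9 and 8. Fewer calls were made without each of the other libraries: 2 higher and 3 lower without control library 2, 3 and 4 without khellin library 1, 2 and 4 without khellin library 2, and 2 and 3 without khellin library 3, when 9.71% to 11.8% of all genes were called.

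**Figure D2:**
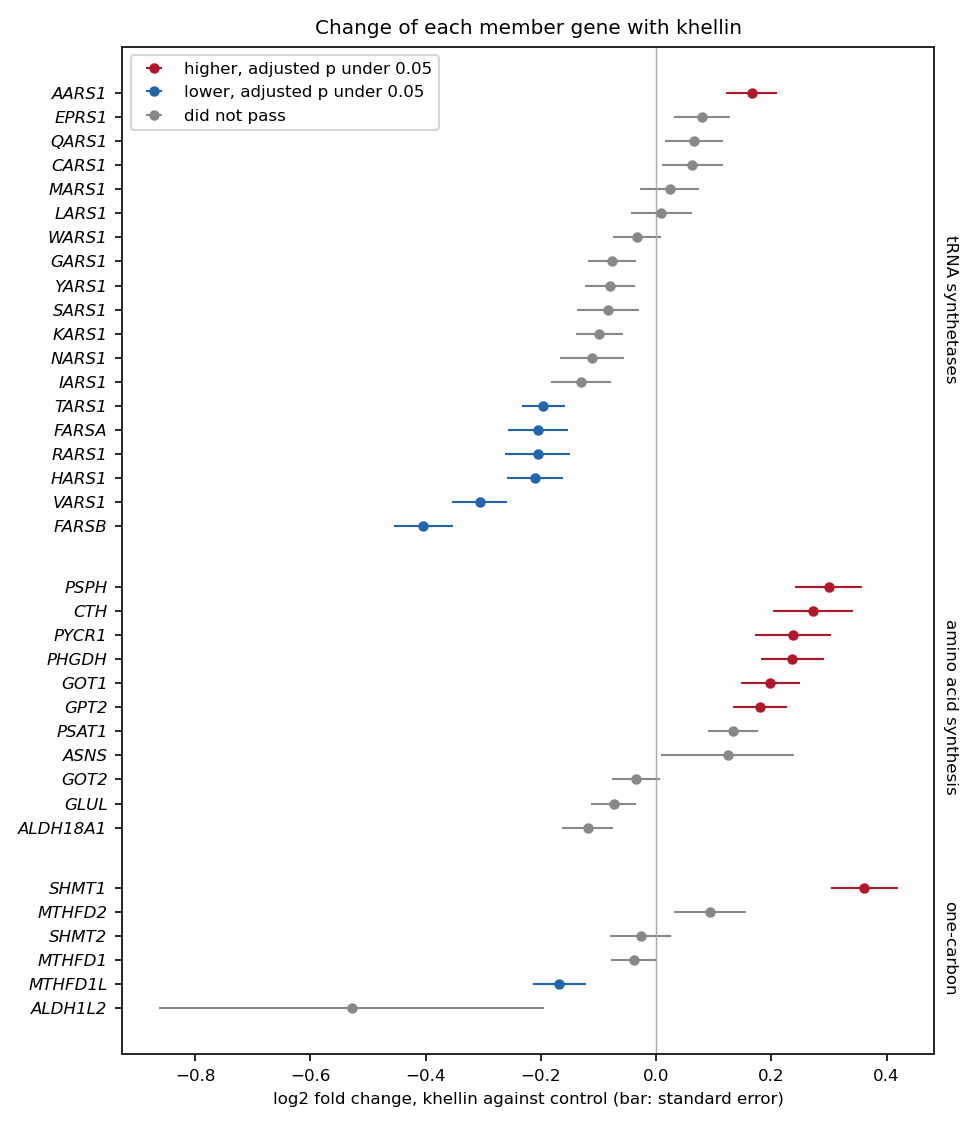
Log2 fold change of khellin against control for each of the 36 genes with its standard error, grouped by role and coloured by the edgeR call. Amino acid synthesis genes lie mostly to the right, from -0.12 to 0.30, and synthetases mostly to the left, from -0.40 to 0.17.

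Among the synthetases, both subunit genes of the phenylalanine enzyme fell. FARSB, which encodes the beta subunit, had 86.0, 79.1 and 79.8 CPM in the control libraries and 62.4, 61.2 and 61.5 CPM in the khellin libraries, a fall of 24.4% (log2 fold change -0.40 ± 0.0514 SE, edgeR adjusted p = 0.000752). FARSA, the catalytic alpha subunit, had 154, 158 and 173 CPM in the control libraries and 139, 144 and 139 CPM in the khellin libraries (log2 fold change -0.20 ± 0.0519 SE, edgeR adjusted p = 0.0226). In both genes every khellin library was below every control library. The ratio of FARSA to FARSB per length was 2.75 ± 0.260 in control and 3.15 ± 0.0827 in khellin libraries (SD, n = 3), without overlap. The call of FARSA was lost without control library 2, khellin library 1, khellin library 2 or khellin library 3, with an edgeR adjusted p of 0.0567 to 0.103, and by library size only (0.0502), whereas FARSB was called in all 16 alternatives.

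The valine and threonine synthetase genes fell as well. VARS1, the valine enzyme, had 266, 279.8 and 289 CPM in the control libraries and 225, 233 and 218 CPM in the khellin libraries, 19.1% lower (log2 fold change -0.31 ± 0.0473 SE, edgeR adjusted p = 0.00213). TARS1, the threonine enzyme, had 445, 453 and 448 CPM in the control libraries and 395, 387 and 393 CPM in the khellin libraries (log2 fold change -0.20 ± 0.0369 SE, edgeR adjusted p = 0.00612). The groups of TARS1 were tight and well apart, with an SD of 3.88 CPM in control and 3.98 CPM with khellin. VARS1 and TARS1 were called in all 16 alternatives.

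HARS1 and RARS1, the histidine and arginine enzymes, fell with less margin. HARS1 had 107, 108 and 116 CPM in the control libraries and 93.7, 98.3 and 94.3 CPM in the khellin libraries (log2 fold change -0.21 ± 0.0488 SE, edgeR adjusted p = 0.0155). RARS1 had 199, 187 and 192 CPM in the control libraries and 177, 155 and 169 CPM in the khellin libraries (log2 fold change -0.21 ± 0.0564 SE, edgeR adjusted p = 0.0316). Khellin library 2 was the lowest of the RARS1 values, and neither gene had overlapping groups. HARS1 lost its call without control library 2, khellin library 1 or khellin library 3 (edgeR adjusted p of 0.0539 to 0.0821), and RARS1 without control library 2, khellin library 2 or khellin library 3 (0.0692 to 0.109) and by library size only (0.0685). Exons of HARS1 overlap HARS2 and WDR55 on the other strand over 658 bases, and these neighbours did not pass (log2 fold changes 0.02 and -0.12).

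AARS1, the alanine enzyme, was the single synthetase gene that rose. It had 188, 190.5 and 198 CPM in the control libraries and 210.3, 223 and 213 CPM in the khellin libraries, 12.2% higher (log2 fold change 0.17 ± 0.0444 SE, edgeR adjusted p = 0.0281), and every khellin library was above every control library. This call was lost without control library 2, khellin library 1, khellin library 2 or khellin library 3 (edgeR adjusted p of 0.0715 to 0.112) and in DESeq2 (0.067).

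**Figure D3:**
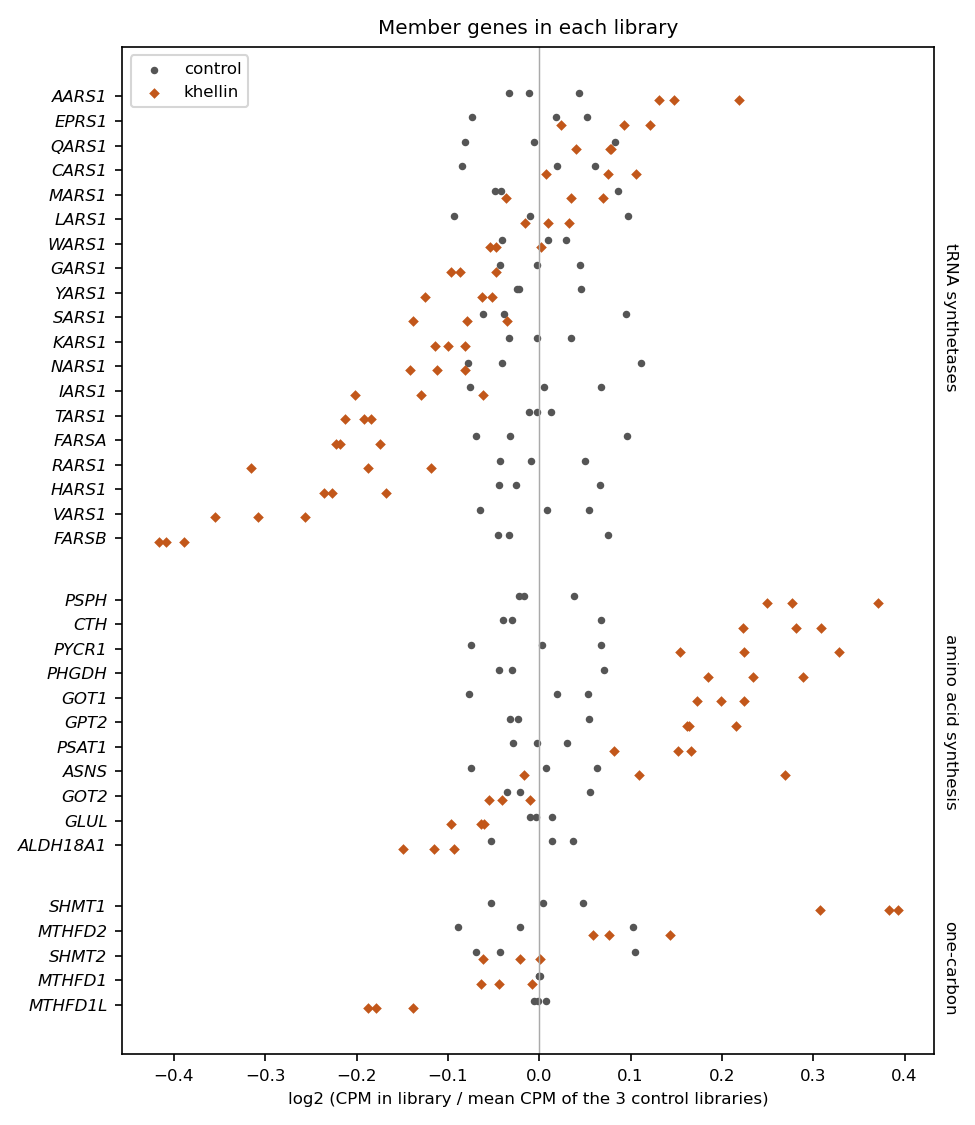
Log2 ratio of the CPM of each library to the mean of the 3 control libraries, for 35 of the 36 genes (ALDH1L2 is left out for its very low counts). Circles are control and diamonds khellin libraries, and the diamonds stand clear of the circles for FARSB, VARS1 and TARS1 on the left and for SHMT1, PSPH and CTH on the right.

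The other 12 synthetase genes did not pass, with log2 fold changes from -0.13 (IARS1, isoleucine) to 0.08 (EPRS1, glutamate and proline). IARS1, one of the most abundant of them, had 542, 519 and 491 CPM in the control libraries and 496, 450.0 and 473 CPM in the khellin libraries (log2 fold change -0.13 ± 0.0520 SE, edgeR adjusted p = 0.116), and its groups overlap. WARS1, the tryptophan enzyme, had 259, 268 and 272 CPM in the control libraries and 258, 267 and 257 CPM in the khellin libraries (log2 fold change -0.03 ± 0.0413 SE, edgeR adjusted p = 0.625), also with overlap. For GARS1, KARS1, NARS1 and YARS1, which charge glycine, lysine, asparagine and tyrosine, all khellin libraries were below all control libraries although the test was not passed, with log2 fold changes of -0.08, -0.10, -0.11 and -0.08. CARS1, LARS1, MARS1, QARS1 and SARS1, for cysteine, leucine, methionine, glutamine and serine, overlapped between the groups, with 0.06, 0.01, 0.02, 0.07 and -0.08. S100PBP, which lies opposite 396 exon bases of YARS1, rose (log2 fold change 0.28 ± 0.0566 SE, edgeR adjusted p = 0.00838). The values of CARS1, LARS1 and MARS1 turned negative under some settings. RARS1 was the only one called among the enzymes of the cytosolic multi-synthetase complex measured here (EPRS1, IARS1, LARS1, MARS1, QARS1, RARS1 and KARS1), a grouping made after the values were seen.

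Of the serine synthesis genes, PHGDH and PSPH rose. PHGDH, which starts the pathway by oxidising 3-phosphoglycerate, had 57.1, 57.6 and 61.8 CPM in the control libraries and 66.9, 71.9 and 69.2 CPM in the khellin libraries, 17.8% higher (log2 fold change 0.24 ± 0.0555 SE, edgeR adjusted p = 0.016). PSPH, the phosphatase of the last step, had 36.9, 36.7 and 38.3 CPM in the control libraries and 48.2, 45.1 and 44.3 CPM in the khellin libraries, 23.1% higher (log2 fold change 0.30 ± 0.0583 SE, edgeR adjusted p = 0.0071). PSAT1, the aminotransferase between them, had 210.5, 202 and 206 CPM in the control libraries and 231, 218 and 229 CPM in the khellin libraries (log2 fold change 0.13 ± 0.0428 SE, edgeR adjusted p = 0.0568). In all 3 genes the khellin libraries were above the control libraries, but PSAT1 did not pass. PSPH was called in all 16 alternatives, PHGDH was lost without control library 2, khellin library 2 or khellin library 3 (edgeR adjusted p of 0.068 to 0.0808), and PSAT1 passed in 6 alternatives, among them those without control library 1 (0.0425) or control library 3 (0.0434).

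ASNS, which makes asparagine from aspartate and glutamine, stayed low and did not pass. It had 3.31, 3.13 and 3.44 CPM in the control libraries and 3.55, 3.97 and 3.26 CPM in the khellin libraries (log2 fold change 0.12 ± 0.115 SE, edgeR adjusted p = 0.496), from 92 to 118 counts per library, and the groups overlapped. This row may not hold the full level of ASNS transcripts. In GENCODE release 29 (GRCh38) another gene on the same strand, ENSG00000284707 at chr7:97851688-97972985, shares 1683 of the 1752 coding bases of ASNS (96.1%) and 1985 of its 4455 exon bases (44.6%). The counting tool is named as HTSeq, and the sources used here do not give its treatment of reads that match both genes. The row of ENSG00000284707 had 6.52 ± 0.138 CPM in control and 6.71 ± 0.410 CPM with khellin (SD, n = 3), with a log2 fold change of 0.04 (edgeR adjusted p = 0.776). Neither row passed, and a change in reads assigned to neither gene would not be seen in these counts.

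**Figure D4:**
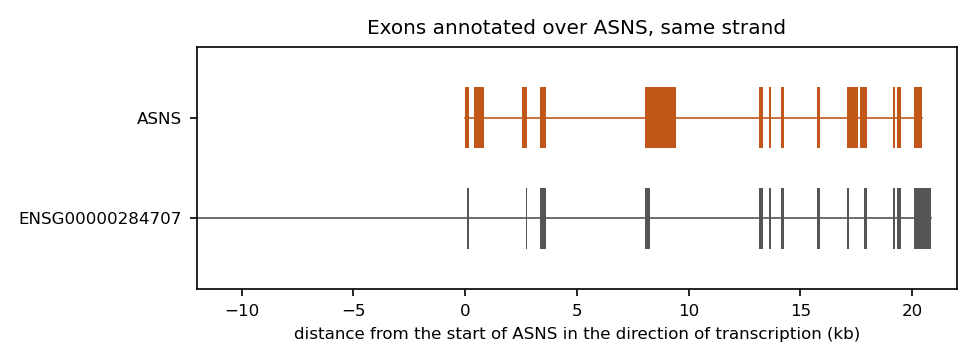
Exons of ASNS and of ENSG00000284707 in GENCODE release 29, as boxes along the distance in kb from the start of ASNS in the direction of transcription (exons of ENSG00000284707 farther upstream are not drawn). Both genes lie on the same strand, and most coding exons of ASNS have a box at the same place in the other gene, 1683 of 1752 coding bases.

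Among the genes of proline and cysteine synthesis, PYCR1 and CTH rose. PYCR1, the mitochondrial reductase that completes proline, had 38.8, 41.0 and 42.8 CPM in the control libraries and 45.5, 51.3 and 47.8 CPM in the khellin libraries (log2 fold change 0.24 ± 0.0663 SE, edgeR adjusted p = 0.0336). ALDH18A1, the first enzyme of that pathway, had 151, 144 and 153 CPM in the control libraries and 138, 139.7 and 134 CPM in the khellin libraries (log2 fold change -0.12 ± 0.0441 SE, edgeR adjusted p = 0.0905). The khellin libraries were thus above control for PYCR1 and below it for ALDH18A1, the latter without passing. CTH, which releases cysteine from cystathionine, had 11.9, 12.8 and 11.98 CPM in the control libraries and 14.3, 14.9 and 15.1 CPM in the khellin libraries, 20.7% higher (log2 fold change 0.27 ± 0.0693 SE, edgeR adjusted p = 0.0232). PYCR1 lost its call without each library except control library 3 (edgeR adjusted p of 0.0556 to 0.124), and CTH without control library 2 or any 1 khellin library (0.051 to 0.103) and in DESeq2 (0.0578). Of 2886 exon bases of PYCR1, 408 are shared with MYADML2 on the same strand and 450 lie opposite an antisense RNA.

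Of the aminotransferases of alanine and aspartate, GPT2 and GOT1 rose. GPT2, mitochondrial alanine aminotransferase, had 85.0, 84.5 and 89.7 CPM in the control libraries and 96.7, 100.3 and 96.6 CPM in the khellin libraries (log2 fold change 0.18 ± 0.0471 SE, edgeR adjusted p = 0.0254). GOT1, cytosolic aspartate aminotransferase, had 66.5, 71.1 and 72.8 CPM in the control libraries and 80.5, 81.9 and 79.0 CPM in the khellin libraries (log2 fold change 0.20 ± 0.0515 SE, edgeR adjusted p = 0.025). GOT2, its mitochondrial counterpart, had 385, 381 and 406 CPM in the control libraries and 380.1, 388 and 376 CPM in the khellin libraries (log2 fold change -0.04 ± 0.0416 SE, edgeR adjusted p = 0.601). The khellin libraries were above control for GPT2 and GOT1 and overlapped it for GOT2. Per length, GOT2 stood at 4.99 ± 0.191 times GOT1 in control and 4.24 ± 0.0170 times in khellin libraries (SD, n = 3), without overlap. The calls of GPT2 and GOT1 were lost without control library 2 or any 1 khellin library, with edgeR adjusted p of 0.0835 to 0.119 and of 0.0827 to 0.0971, and GPT2 also in DESeq2 (0.0538). Over 651 of its 3369 exon bases GOT1 lies opposite a noncoding RNA that shares its promoter. GLUL, glutamine synthetase, had 182, 179 and 179.8 CPM in the control libraries and 169, 173 and 172 CPM in the khellin libraries (log2 fold change -0.07 ± 0.0395 SE, edgeR adjusted p = 0.229), with khellin below control but no call.

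In folate one-carbon metabolism the gene of the cytosolic serine hydroxymethyltransferase rose. SHMT1, the cytosolic enzyme, had 35.8, 34.4 and 36.9 CPM in the control libraries and 46.5, 46.8 and 44.1 CPM in the khellin libraries, a rise of 28.4% (log2 fold change 0.36 ± 0.0579 SE, edgeR adjusted p = 0.00259). SHMT2, the mitochondrial enzyme, had 264, 269 and 298 CPM in the control libraries and 265, 273 and 277 CPM in the khellin libraries (log2 fold change -0.03 ± 0.0527 SE, edgeR adjusted p = 0.77). SHMT1 rose in each khellin library, while SHMT2 overlapped between the groups and its sign turned under library size only and without control library 3 (0.0272). The ratio of SHMT2 to SHMT1 per length was 11.1, 11.8 and 12.1 in control and 8.57, 8.76 and 9.44 in khellin libraries. SHMT2 therefore remained the more abundant transcript in both groups, by a smaller factor with khellin and without overlap. SHMT1 was called in all 16 alternatives, and 196 of its exon bases lie opposite SMCR8, which did not pass (log2 fold change -0.02).

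MTHFD1L, the mitochondrial formyltetrahydrofolate synthetase that releases formate, had 71.6, 71.4 and 72.1 CPM in the control libraries and 63.3, 65.2 and 63.0 CPM in the khellin libraries (log2 fold change -0.17 ± 0.0465 SE, edgeR adjusted p = 0.0324). The groups did not overlap, but this call was lost without control library 2 or any 1 khellin library (edgeR adjusted p of 0.0719 to 0.142), with the replicate number as a block (0.0648), with no filter on low counts (0.0506), with upper quartile factors (0.055) and by library size only (0.0933). MTHFD1, the trifunctional cytosolic enzyme, had 199.6, 199 and 199 CPM in the control libraries and 198, 191 and 193 CPM in the khellin libraries (log2 fold change -0.04 ± 0.0396 SE, edgeR adjusted p = 0.547). MTHFD2, the mitochondrial dehydrogenase and cyclohydrolase, had 62.9, 57.7 and 55.0 CPM in the control libraries and 60.99, 64.7 and 61.7 CPM in the khellin libraries (log2 fold change 0.09 ± 0.0619 SE, edgeR adjusted p = 0.331). MTHFD1 was below control in each khellin library by an amount that did not pass, and MTHFD2 overlapped. Exons of MTHFD2 lie opposite other genes over 1619 of 4870 bases, of which SLC4A5 had 0.179 CPM in control. ALDH1L2, a mitochondrial formyltetrahydrofolate dehydrogenase, had 7 to 16 counts per library and overlapping groups (log2 fold change -0.53 ± 0.334 SE, edgeR adjusted p = 0.308).

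For the 34 genes of at least 10 CPM the coefficient of variation was 0.0537% to 7.09% in control and 0.987% to 6.86% in khellin libraries. A further 8 genes had groups that did not overlap and did not pass: PSAT1 with khellin above, and GARS1, KARS1, NARS1, YARS1, ALDH18A1, GLUL and MTHFD1 with khellin below. The strand setting of the counting is not given in the sources used here, so reads of genes that overlap on opposite strands may be mixed. GENCODE names 7 pseudogenes after MTHFD2 and 4 each after ASNS, PSAT1, GOT2 and GLUL, and how reads of near-identical copies were divided is also not given.

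The other genes of charging and of amino acid metabolism came from the same fit. Of 5 further cytosolic charging genes 0 rose and 1 fell, TARS3, a threonyl-tRNA synthetase paralogue (log2 fold change -0.30 ± 0.0886 SE, edgeR adjusted p = 0.0439). Of 17 mitochondrial synthetase genes 0 rose and 2 fell, MARS2 for methionine (log2 fold change -0.43 ± 0.0607 SE, edgeR adjusted p = 0.00132) and CARS2 for cysteine (log2 fold change -0.29 ± 0.0499 SE, edgeR adjusted p = 0.00347). In neither list was a gene higher at an unadjusted edgeR p under 0.05, and DESeq2 and limma-voom each called 0 higher. The fall of TARS3 was lost without control library 1 or any 1 khellin library, with upper quartile factors, by library size only and with no filter, whereas 4 of the 5 genes were lower with the length and GC correction. Of the mitochondrial genes 4 were lower with that correction and 1 was higher without control library 3. Among all genes, 3055 of 15299 were lower with that correction and 1867 of 16117 were higher without control library 3. The 2 falls among 17 (11.8%) lie near the 8.82% of all tested genes called lower, while 10.6% were called higher. The median log2 fold changes of these lists were -0.19 and -0.05. Of 15 tested genes of other amino acid metabolism 1 rose and 0 fell in edgeR, DESeq2 and limma-voom alike, with a median of -0.02, and 2 were lower at an unadjusted p under 0.05. The length and GC correction called 3 lower, 1 was lower without control library 1, and 2 were higher without control library 3. Without control library 1, 1722 of all 16131 genes were lower. The riser was ARG2, mitochondrial arginase, at 5.38 ± 0.123 CPM in control and 7.82 ± 0.162 CPM with khellin (SD, n = 3) (log2 fold change 0.54 ± 0.0797 SE, edgeR adjusted p = 0.00168).

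Of 16 other tested one-carbon genes 3 fell, beside 8.82% of all tested genes, with a median log2 fold change of -0.04. GART and ATIC, purine synthesis enzymes that take formyl groups from folate, fell (log2 fold change -0.17 ± 0.0387 SE, edgeR adjusted p = 0.0145, and log2 fold change -0.26 ± 0.0541 SE, edgeR adjusted p = 0.0101), as did MTFMT, which formylates mitochondrial initiator methionyl-tRNA. With the length and GC correction 6 were lower, when 3055 of all 15299 genes were lower. In this list 0 genes were called lower without khellin library 1, 1 without control library 2, khellin library 2 or khellin library 3, and 5 without control library 3. Among all genes, in the same order, 691, 769, 836, 643 and 1626 were called lower.

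Genes of the integrated stress response itself moved in both directions. Of 19 core genes 5 rose and 3 fell, beside 10.6% and 8.82% of all tested genes, with a median log2 fold change of -0.02. With the length and GC correction 7 of them were lower, when 3055 of all 15299 genes were lower. EIF2AK3, the eIF2alpha kinase PERK of the endoplasmic reticulum, was at 34.0 ± 2.36 CPM in control and 46.9 ± 1.43 CPM with khellin (SD, n = 3) (log2 fold change 0.46 ± 0.0661 SE, edgeR adjusted p = 0.00141). EIF2AK4, the kinase GCN2 that senses uncharged tRNA, was at 179 ± 8.13 CPM in control and 151 ± 1.01 CPM with khellin (SD, n = 3) (log2 fold change -0.25 ± 0.0459 SE, edgeR adjusted p = 0.00538). PPP1R15A, the GADD34 subunit that directs dephosphorylation of eIF2alpha, was at 520.3 ± 32.3 CPM in control and 374 ± 9.40 CPM with khellin (SD, n = 3) (log2 fold change -0.48 ± 0.0511 SE, edgeR adjusted p = 0.00029). The kinases PERK and GCN2 thus moved in opposite directions at the level of RNA. EIF2AK1, ATF4, ATF3 and CEBPB also rose and EIF2S1 fell. ATF4, named after its values were seen, was at 292 ± 16.8 CPM in control and 329 ± 6.64 CPM with khellin (SD, n = 3) (log2 fold change 0.18 ± 0.0494 SE, edgeR adjusted p = 0.0348), and its activity is set largely by translation, which these data do not measure. DDIT3, the stress factor CHOP, likewise named afterwards, was at 30.0 ± 2.33 CPM in control and 26.9 ± 0.685 CPM with khellin (SD, n = 3) and did not pass (log2 fold change -0.16 ± 0.0700 SE, edgeR adjusted p = 0.152). Without control library 2, khellin library 1 or khellin library 2, 1 core gene was called higher, and 2 without khellin library 3. Without any 1 khellin library 2 were called lower. In these settings 9.71% to 11.8% of all genes were called.

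Of 16 transporters and feedback genes often induced by ATF4, 5 rose and 0 fell in edgeR, DESeq2 and limma-voom alike, with a median log2 fold change of 0.09, and 1 was lower at an unadjusted p under 0.05. Among all tested genes 10.6% rose and 8.82% fell in edgeR. The length and GC correction called 5 lower, when 3055 of all 15299 genes were lower. Without control library 1 or control library 3, 1 was lower, when 1722 of 16131 and 1626 of 16117 genes were. The 3 with the smallest p were DDIT4, an mTORC1 inhibitor (log2 fold change 1.18 ± 0.0761 SE, edgeR adjusted p = 1.97e-05), SLC6A9, a glycine transporter (log2 fold change 0.66 ± 0.0673 SE, edgeR adjusted p = 0.000227), and SLC7A5, the large neutral amino acid transporter (log2 fold change 0.29 ± 0.0407 SE, edgeR adjusted p = 0.00131). STC2 and the serine and alanine exchanger SLC1A4 rose as well. DDIT4 rose by more than any of the 36 enzymes, none of which exceeded a log2 fold change of 0.36. These genes were chosen with earlier results known, and DDIT4 is the gene named in the title of the study, so their counts are a description.

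**Figure D5:**
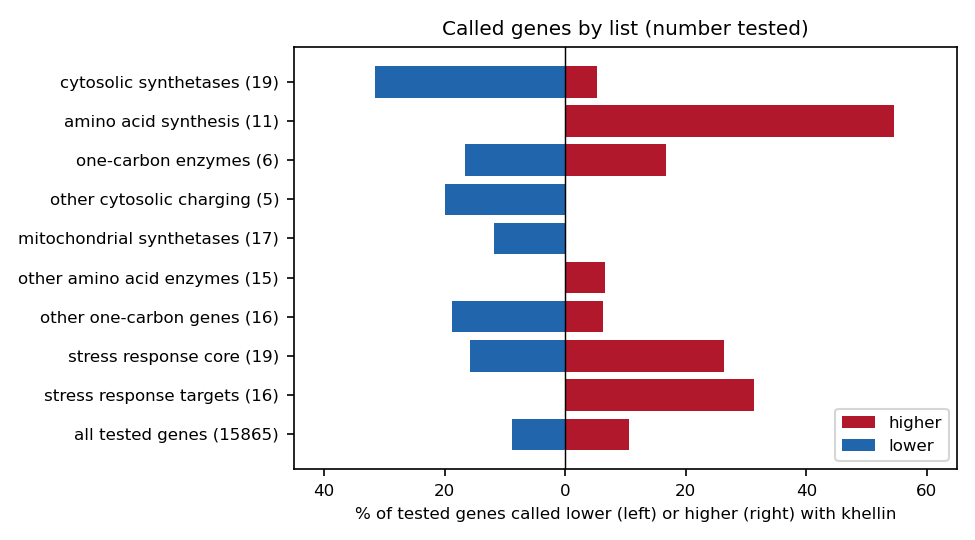
Share of tested genes called in each role group and related pathway list, marker lists not drawn, with lower calls to the left and higher calls to the right, with the number tested in parentheses. Of the lists drawn, amino acid synthesis genes have the longest bar to the right, 54.5%, and cytosolic synthetases the longest to the left, 6 of 19, beside 10.6% and 8.82% for all tested genes.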

How the data were processed

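The labels' protocols describe TRIzol extraction from MDA-MB-231 cells and a VAHTS Universal V6 library kit. Gene values are raw counts as deposited, and the submitters' processing notes name HTSeq, HISAT2 and fastp as the tools the authors used. Their versions, the strand setting, the build and the annotation are not given in the sources used here. Of 27776 gene identifiers, 25378 are in GENCODE release 29, and the coordinates of 25358 of these overlap it on GRCh38, so that build was used. Groups were taken from the sample titles, and all 6 count columns were mapped to a library.

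CPM used TMM factors, edgeR's filterByExpr by group left 15865 genes, and edgeR's quasi-likelihood test (robust, group only, two-sided) was adjusted by Benjamini-Hochberg over all of them and called at 0.05. The standard error is the absolute log2 fold change divided by the root of F. The biological coefficient of variation was 6.95%. Pairs of libraries of a group differed by a chi-square per degree of freedom of 1.91 (khellin libraries 1 and 3) to 20.8 (control libraries 1 and 3). No count column was thus a copy of another, but these values do not show whether the cultures were separate. The members and lists were chosen with earlier results of these data known. All members are named, and called genes of each context list, with values for the 3 smallest p, except where the text says that a gene was named after its values were seen. The test was tested on simulated data. Alternatives were limma-voom, DESeq2, scaling by RLE, by upper quartile or by library size only, without a filter on low counts or with a minimum of 1 CPM in 3 libraries, a replicate block, a length and GC correction (mgcv), both together, a threshold of 0.01, and each library left out. Promoter sequences are from RefSeq, and proteins were not analysed here. A gene of the other one-carbon list is not reported here. Versions were edgeR 4.0.16, DESeq2 1.42.0, limma 3.58.1 and mgcv 1.9.3 in R 4.3.3, and Python 3.11.15.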

Additional observations from a re-analysis of the deposited data

How the results depend on the processing

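Of the 15 called genes, 5 (TARS1, VARS1, FARSB, PSPH and SHMT1) were called in all 16 alternatives that change the fit, 10 lost the call in at least 1, and 0 changed sign, while 9 of the 21 others were called in at least 1. DESeq2 called 5 genes higher, with 0 synthetases among them, and library size only called 4 lower. With the length and GC correction 15 genes were lower (11 synthetases, 2 amino acid synthesis and 2 one-carbon genes), 12 when combined with the replicate block, 2 of them for amino acid synthesis. At an adjusted p under 0.01, 2 were higher (0 synthetases and 1 amino acid synthesis gene) and 3 lower (3 synthetases and 0 one-carbon genes). The one-carbon fall, MTHFD1L, left 0 with upper quartile factors, with library size only, with no filter and with the block. Leaving out 1 library gave 2 to 9 higher and 3 to 8 lower genes, 0 to 1 synthetases higher and 3 to 7 lower, 1 to 7 amino acid synthesis genes higher, and 0 to 1 one-carbon genes lower.

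Signs turned only in genes that did not pass. Log2 fold changes became negative for CARS1 (-0.0068), LARS1 (-0.0244) and MARS1 (-0.0324) with the length and GC correction, and with the block added they were -0.00603, -0.0245 and -0.0316. LARS1 was -0.0037 with RLE factors and in DESeq2. Library size only gave positive values for WARS1 (0.0112), GOT2 (0.0089), SHMT2 (0.0178) and MTHFD1 (0.0058). Leaving out 1 library gave -0.0373 to 0.0593 for LARS1, -0.0011 to 0.0667 for MARS1 and -0.0609 to 0.0272 for SHMT2. The median log2 fold change of the synthetases was negative in every setting (-0.12 to -0.04) and that of amino acid synthesis genes positive (0.14 to 0.22), while the medians of the one-carbon genes and of all 36 were 0.01 with library size only, a scaling that moved the median of all genes from 0.00 to 0.05, so that both medians stayed below it. The cause of the other shifts was not tested.

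Libraries with the same replicate number had correlated deviations of 0.136, 0.0339 and -0.119, and not every library correlated best with its own number. These values give no support for pairing by number, but with 3 libraries per group they cannot settle whether libraries were paired. With the replicate block, 8 genes were higher and 6 lower (1 and 6 synthetases, and 0 one-carbon genes lower), and 17.7% of all genes were called. At these depths ALDH1L2, at 7 to 16 counts, limits any statement.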
